A study of Mus musculus with 6 samples.

Results

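The BCL2 family survival genes described here are 10 members taken by gene symbol from the 32285 genes of the count matrices. They are the pro-survival genes Bcl2, Bcl2l1 (BCL-XL), Mcl1 and Bcl2a1b (A1), the pore-forming effectors Bax and Bak1, and the BH3-only genes Bid, Bcl2l11 (BIM), Bbc3 (PUMA) and Pmaip1 (NOXA). Each symbol matched exactly 1 row of the files, and every member had UMIs (counted molecules) in every library compared. Healthy host cells were sorted as CD45.1+ Lin- cKit+ Sca1+ (LSK) bone marrow cells, the compartment that holds hematopoietic stem cells and multipotent progenitors, and profiled by droplet single-cell RNA sequencing. The hosts were female C57BL/6J CD45.1 mice of 8 to 12 weeks that had received no conditioning. The AML group was given 1000000 cells of C1498, a murine acute myeloid leukemia line carrying CD45.2, the PBS group was injected with PBS, and both were sacrificed at day 21. Each group has 3 libraries. The labels do not say how many mice a library holds, so that p-values measure the spread between libraries.

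Cells commit to mitochondrial apoptosis through the balance of these proteins. BAX and BAK1, once activated, permeabilise the outer mitochondrial membrane, the pro-survival members hold them and the BH3-only members in check, and the BH3-only members relay stress by engaging both. In blood-forming cells MCL1 is required for stem cell survival, BIM mediates death on cytokine withdrawal, and PUMA and NOXA are targets of p53.

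The number of cells retained by the authors was 6838, 934 and 4398 for PBS (replicates 1, 2, 3). For AML it was 693 (replicate 1) and 3959 (replicate 3). No retained cell came from AML replicate 2, so that the comparisons set 3 PBS libraries against 2 AML libraries. The kept cells carry between 1945659 UMIs (AML replicate 1) and 32123508 UMIs (PBS replicate 1). The barcodes of kept cells overlapped little, with at most 12 shared between any 2 libraries. Over all barcodes, PBS replicates 1 and 2 shared 631, which is 50.2% of those of PBS replicate 2. The LSK sort genes Kit, Ly6a, Cd34 and Ptprc were detected in each of the 5 libraries. AML replicate 1 differed from the others in depth and makeup. It had a median of 2393 UMIs per kept cell against 4015 to 9586 in the other libraries, and its kept cells held 1945659 of its 10359436 UMIs. Of its cells, 52.4% were called G2M against 18.3% to 24.1% in the other libraries, and its HSC class has 23 cells, in which no member had more than 6 UMIs. The MPP-3 class also holds cells of other kinds. Of the 177 cells of cluster 6, 172 are in this class, and Igkc, Jchain, Igha and Mzb1 (immunoglobulin and plasma cell genes) took 49.7% to 56.3% of the UMIs of cluster 6 and 2.59% to 20.6% of those of the MPP-3 class, by library. Of the 113 cells of cluster 8, which had the highest T and NK marker sums, 72 are MPP-3. The main values of the MPP-3 class are therefore also given without clusters 6, 7 and 8, an alternative added after seeing the data, in which the immunoglobulin share was at most 0.0182%.

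The members lie on 8 chromosomes (GRCm38). Bcl2 spans chr1:106538178-106714274 on the minus strand, Mcl1 chr3:95658788-95663176 on the plus strand, Bcl2l1 chr2:152780668-152831728 (minus), Bcl2l11 chr2:128126038-128162547 (plus), Bax chr7:45461697-45466898 (minus) and Bbc3 chr7:16308393-16318205 (plus). Bak1 is at chr17:27019810-27029009 (minus), Bid is at chr6:120891930-120916853 (minus) and Bcl2a1b at chr9:89199209-89207827 (plus). Bid overlaps Bcl2l13, Bak1 overlaps Ggnbp1, and Bcl2 overlaps D630008O14Rik, each on the opposite strand. All are separate rows in the files, and reads can be told apart there only if the counting used strand, a setting not stated in the sources at hand.

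Bcl2a1b is 1 of a set of near-identical genes, and its counts are uncertain for that reason. The mature transcript of Bcl2a1b (817 bases) was identical to that of Bcl2a1d at 99.1% and to that of Bcl2a1a at 98.2% of aligned bases. In its last 300 bases, the part read by a 3′ assay, 74.1% of all 50-base words also occurred in Bcl2a1d and 43.8% in Bcl2a1a. The sequences below are the first 60 coding bases of the 3 genes (exonic, GRCm38, 5′ to 3′), at chr9:89199360-89199419 (plus) for Bcl2a1b, chr9:88957051-88957110 (plus) for Bcl2a1a and chr9:88731660-88731719 (minus) for Bcl2a1d. This is the coding window where they differ most. Capitals in Bcl2a1b mark positions at which either copy differs, and capitals in the copies mark their differences from Bcl2a1b.
Bcl2a1b: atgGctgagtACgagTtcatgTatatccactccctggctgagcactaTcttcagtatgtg
Bcl2a1a: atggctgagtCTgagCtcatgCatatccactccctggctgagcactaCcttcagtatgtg
Bcl2a1d: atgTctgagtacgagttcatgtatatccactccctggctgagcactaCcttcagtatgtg
Of the 60 bases, 5 differed in Bcl2a1a and 2 in Bcl2a1d.

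The upstream sequences of 3 members are shown because the results turn on them: Mcl1 and Bbc3 fell together in cycling cells, and Bcl2l11 was highest in the MPP-4 class. Each is the 250 bases before a RefSeq start (GRCm38.p6, plus strand), at chr3:95658471-95658720 for Mcl1, chr7:16309333-16309582 for Bbc3 (the most upstream of 3 starts) and chr2:128125788-128126037 for Bcl2l11 (the more upstream of 2 starts). The Bbc3 window lies inside the gene span given above, which begins at 16308393, so that it is upstream of the RefSeq start only. Capitals mark matches, on either strand, to GGGCGG (the GC box), CCAAT (the CCAAT box), CACGTG (the E-box), TGACGTCA (the cAMP response element), GTAAACA (a forkhead motif) and TTTGAA (the core of the cell cycle genes homology region).
Mcl1: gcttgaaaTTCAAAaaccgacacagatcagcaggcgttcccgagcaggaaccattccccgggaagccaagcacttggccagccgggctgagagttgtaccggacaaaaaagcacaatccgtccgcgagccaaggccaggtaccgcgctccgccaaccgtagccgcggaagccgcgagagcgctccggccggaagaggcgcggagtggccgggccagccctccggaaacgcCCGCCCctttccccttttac
Bbc3: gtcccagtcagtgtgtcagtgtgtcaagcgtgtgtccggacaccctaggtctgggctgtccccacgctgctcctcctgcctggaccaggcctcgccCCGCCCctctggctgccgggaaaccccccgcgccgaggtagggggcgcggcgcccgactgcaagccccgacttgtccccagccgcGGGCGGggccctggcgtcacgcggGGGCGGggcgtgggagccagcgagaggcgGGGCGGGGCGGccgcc
Bcl2l11: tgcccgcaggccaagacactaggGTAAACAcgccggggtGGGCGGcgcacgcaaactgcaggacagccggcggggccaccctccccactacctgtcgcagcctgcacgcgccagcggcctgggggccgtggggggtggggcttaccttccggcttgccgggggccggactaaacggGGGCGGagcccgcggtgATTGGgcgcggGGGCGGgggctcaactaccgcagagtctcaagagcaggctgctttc
GGGCGG occurred 5 times upstream of Bbc3, 3 times upstream of Bcl2l11 and 1 time upstream of Mcl1, and 32.7% of 32851 upstream windows of the same length hold it at least 1 time. Mcl1 also holds 1 TTTGAA, present in 16.0% of all windows. Bcl2l11 holds 1 CCAAT (33.9% of windows) and 1 GTAAACA (3.17%). CACGTG (6.02% of windows) and TGACGTCA (1.55%) were in none of the 3. Of the 10 members, 9 have a row in the table of starts.

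Expression differed between HSC and the 3 progenitor classes, which the authors assigned from module scores of the same cells. UMIs were summed per library and class, given as CPM (UMIs per 1000000 of the TMM-normalized total), and tested with edgeR's quasi-likelihood F test with the library as a term. CPM values are not divided by gene length, so that levels are compared within a gene only. Markers of HSC and MPP-3 were highest in the classes of those names, with HSC markers summing to 1217 to 1485 CPM in the HSC class and at most 626 CPM elsewhere, and MPP-3 markers to 2542 to 5033 CPM in MPP-3 and at most 1456 CPM elsewhere. MPP-4 markers, which include Ighm, were higher in MPP-3 (4857 to 41230 CPM) than in MPP-4 (1260 to 1513 CPM), and came to 339 to 571 CPM in MPP-3 without clusters 6 to 8. Of the 9 members tested, 8 differed among the classes at an adjusted p under 0.05, beside 67.7% of all 11705 genes. Bcl2l1 missed the threshold (adjusted p = 0.0502) and Bcl2a1b was below the count filter.

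Bcl2 was lowest in HSC and, in the fit over all libraries, highest in MPP-3. In HSC it stood at 51.0, 42.7 and 53.6 CPM in PBS replicates 1, 2 and 3, and at 68.5 and 67.8 CPM in AML replicates 1 and 3. The corresponding MPP-3 values were 92.3, 136, 121, 232 and 181 CPM. MPP-3 exceeded HSC in each library, by 1.20 ± 0.12 on the log2 scale (SE, adjusted p = 6.0e-10), and by 1.09 ± 0.11 without clusters 6 to 8 (adjusted p = 2.0e-10). MPP-2 ranged from 55.9 to 173 CPM and was 0.79 ± 0.11 above HSC (adjusted p = 3.1e-07), but by 0.44 in G1 cells alone, which did not pass (adjusted p = 0.15). MPP-4 ranged from 59.8 to 146 CPM and was 0.81 ± 0.11 above HSC (adjusted p = 5.9e-07). MPP-2 and MPP-4 did not differ beyond their spread (0.01 ± 0.09, adjusted p = 0.92), and MPP-3 was above both (0.41 ± 0.10 over MPP-2, adjusted p = 0.0032, and 0.40 ± 0.10 over MPP-4, adjusted p = 0.0027). Without clusters 6 to 8, MPP-3 was 0.27 over MPP-2 (adjusted p = 0.045), and MPP-4 minus MPP-3 was -0.27 (adjusted p = 0.024). PBS replicate 1 departed from this order, with 96.5 CPM in MPP-4 and 92.3 CPM in MPP-3. Without clusters 6 to 8 that library had 99.05 and 85.8 CPM.

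Mcl1, whose protein is short-lived, was lower in MPP-2 than in HSC in each of the 5 libraries, at 81.1 against 116 CPM in PBS replicate 1, 115 against 148 in PBS replicate 2, 53.7 against 81.6 in PBS replicate 3, 50.2 against 68.5 in AML replicate 1 and 73.7 against 89.4 in AML replicate 3. The difference was -0.43 ± 0.08 (log2, adjusted p = 1.4e-05), and -0.39 in G1 cells alone, where it no longer passed (adjusted p = 0.052). MPP-4 was also lower than HSC in each of the 5 libraries, but the difference did not pass (-0.13 ± 0.07, adjusted p = 0.18). MPP-3 against HSC gave -0.10 ± 0.08 (adjusted p = 0.34) over all its cells, -0.30 ± 0.08 without clusters 6 to 8 (adjusted p = 0.0023) and 0.26 in G1 cells alone (adjusted p = 0.038), so that its sign depended on which cells were summed. In cluster 6 Mcl1 was at 183 to 316 CPM in the 3 libraries with at least 20 such cells, but at 61.7 to 131 in plain CPM (median 118), which are not TMM-scaled, and there it overlapped cluster 0 (63.2 to 156, median 103).

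Bcl2l1 passed the test in none of the classes against HSC, and Bcl2a1b was too low to be tested. Bcl2l1 stayed between 4.07 and 18.9 CPM in the 3 MPP classes, and in HSC it was at 5.77 to 9.05 CPM in 4 libraries and without a UMI in AML replicate 1. Its difference from HSC was within the spread in each (MPP-2 and MPP-3, adjusted p = 0.81 each; MPP-4, adjusted p = 0.15). MPP-4 was below MPP-2 by 0.44 ± 0.16 on the log2 scale (adjusted p = 0.021), a call lost without PBS replicate 1 (difference -0.29, adjusted p = 0.26) or PBS replicate 2 (-0.29, adjusted p = 0.16) and with DESeq2 (-0.39, adjusted p = 0.097). Over all libraries Bcl2a1b had 24 UMIs in HSC, 62 in MPP-2, 59 in MPP-4 and 95 in MPP-3, and 83 of the last came from AML replicate 3.

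The effectors were higher in MPP-2 and MPP-3 than in HSC. Bax in HSC was 93.1, 81.0 and 92.4 CPM in PBS replicates 1, 2 and 3, 34.3 CPM in AML replicate 1 and 84.7 CPM in AML replicate 3. Its MPP-3 values in the same order were 121, 138, 144, 137 and 174 CPM, all above every HSC value. Bax was 0.46 ± 0.09 higher in MPP-2 (adjusted p = 6.3e-05) and 0.70 ± 0.10 higher in MPP-3 (adjusted p = 3.3e-07) than in HSC, and MPP-4 did not pass (0.16 ± 0.09, adjusted p = 0.18). Bak1 ranged from 17.9 to 45.7 CPM in HSC and from 24.6 to 49.3 CPM in MPP-3. It was 0.64 ± 0.10 higher in MPP-2 (adjusted p = 3.6e-06) and 0.75 ± 0.12 higher in MPP-3 (adjusted p = 2.5e-06), each in 4 of 5 libraries, the exception being AML replicate 1. In MPP-4 it just missed the threshold (0.27 ± 0.11, adjusted p = 0.051), and it passed without PBS replicate 2 (0.30, adjusted p = 0.047) or AML replicate 1 (0.30, adjusted p = 0.021). In G1 cells alone the Bak1 differences were 0.40 and 0.29 and passed in neither class (adjusted p = 0.26 and 0.22), and the Bax differences were kept (0.45 and 0.51, adjusted p = 0.013 and 0.00013).

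Among the BH3-only genes, Bcl2l11 set MPP-4 apart. Its MPP-4 levels were 33.9, 24.9 and 17.4 CPM in PBS replicates 1, 2 and 3, and 20.2 and 20.05 CPM in AML replicates 1 and 3. In HSC the same libraries had 11.3, 4.93, 7.97, 11.4 and 8.29 CPM, the value of AML replicate 1 being 1 UMI (8 UMIs in MPP-4). In the 4 other libraries each MPP-4 value was above each HSC value. MPP-4 was 1.48 ± 0.14 above HSC (log2, adjusted p = 8.3e-10), 1.26 ± 0.11 above MPP-2 (adjusted p = 6.5e-11) and 0.69 ± 0.13 above MPP-3 (adjusted p = 1.0e-04), the last being 0.81 without clusters 6 to 8 (adjusted p = 2.1e-05). MPP-3 was 0.79 ± 0.18 above HSC (adjusted p = 4.3e-04), 0.67 without these clusters (adjusted p = 0.0033) and 1.19 in G1 cells alone (adjusted p = 4.9e-05). MPP-2 was above HSC in each of the 5 libraries, but the difference did not pass (0.22 ± 0.17, adjusted p = 0.27). In G1 cells alone the excess of MPP-4 over HSC was 1.57 (adjusted p = 6.7e-11), and that over MPP-3 was 0.38 and no longer passed (adjusted p = 0.16).

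Pmaip1 (chr18:66458533-66465565, plus strand) was scarcely detected in HSC and highest in MPP-3. It had 12 UMIs in all HSC sums together (0 to 1.22 CPM) and 108 in MPP-3, at 5.02, 12.3, 3.26, 12.0 and 10.1 CPM in PBS replicates 1, 2 and 3 and AML replicates 1 and 3. The fitted excess of MPP-3 over HSC was 2.81 ± 0.45 (adjusted p = 4.2e-06) and 2.55 without clusters 6 to 8 (adjusted p = 9.4e-06). MPP-3 was also 1.57 ± 0.30 above MPP-2 (adjusted p = 1.9e-04) and 1.20 above MPP-4 (MPP-4 minus MPP-3, -1.20 ± 0.29, adjusted p = 0.0015). The last of these was lost without AML replicate 3 (-1.05, adjusted p = 0.065). Without clusters 6 to 8 the MPP-3 levels in the same order were 4.17, 3.26, 2.16, 11.2 and 10.4 CPM, the excess over MPP-2 was 1.30 (adjusted p = 0.0016), and MPP-4 minus MPP-3 was -0.95 (adjusted p = 0.0085). The excesses of MPP-2 (1.24 ± 0.49, adjusted p = 0.033) and MPP-4 (1.60 ± 0.47, adjusted p = 0.0085) over HSC were also lost without AML replicate 3 (0.73, adjusted p = 0.29, and 1.26, adjusted p = 0.081), and that of MPP-2 without PBS replicate 1 as well (1.63, adjusted p = 0.051) and with DESeq2 (1.16, adjusted p = 0.066).

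Bid, which links death receptors to mitochondria, was 0.82 ± 0.14 higher in MPP-3 than in HSC (adjusted p = 1.2e-05), with 34.3 to 52.95 CPM against 0 to 36.7 CPM. It was 0.40 ± 0.13 higher in MPP-4 (adjusted p = 0.016) and 0.37 ± 0.13 higher in MPP-2 (adjusted p = 0.015), the latter not passing in G1 cells alone (0.43, adjusted p = 0.23). Without AML replicate 3 these MPP-4 and MPP-2 differences were 0.30 (adjusted p = 0.072) and 0.19 (adjusted p = 0.21), and without PBS replicate 3 that of MPP-2 was 0.36 (adjusted p = 0.063). DESeq2 did not call the MPP-2 difference of Bid (0.30, adjusted p = 0.091). Bbc3 was lower in MPP-2 than in HSC by 0.50 on the log2 scale (-0.50 ± 0.16, adjusted p = 0.011), at 5.21 to 7.95 CPM against 7.15 to 12.0 CPM in 4 libraries and no UMI in the HSC sum of AML replicate 1. This call was lost without AML replicate 3 (-0.41, adjusted p = 0.072) and with thinned cells (-0.27, adjusted p = 0.43), and in G1 cells alone the sign turned (0.54, adjusted p = 0.32). Only 11.5% of MPP-2 cells were called G1, against 84.9% of HSC, 46.2% of MPP-3 and 70.9% of MPP-4.

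Counted against HSC, 5 of 9 members were higher and 2 lower in MPP-2, where 28.3% of all genes tested were higher and 27.8% lower. In MPP-3, 6 were higher and 0 lower, beside 25.5% and 24.2% of all genes. In MPP-4, 4 were higher and 0 lower, beside 15.9% and 15.4%. The median log2 difference over the 9 members was 0.37 for MPP-2, 0.75 for MPP-3 and 0.27 for MPP-4, where that over all genes was -0.03, -0.02 and 0.00. Without AML replicate 3, 4 members passed for MPP-2 (5814 of 11634 genes) and 2 members for MPP-4 (2987 genes), and in G1 cells alone 1 passed in MPP-2, Bax (1020 of 10279 genes).

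**Figure D1:**
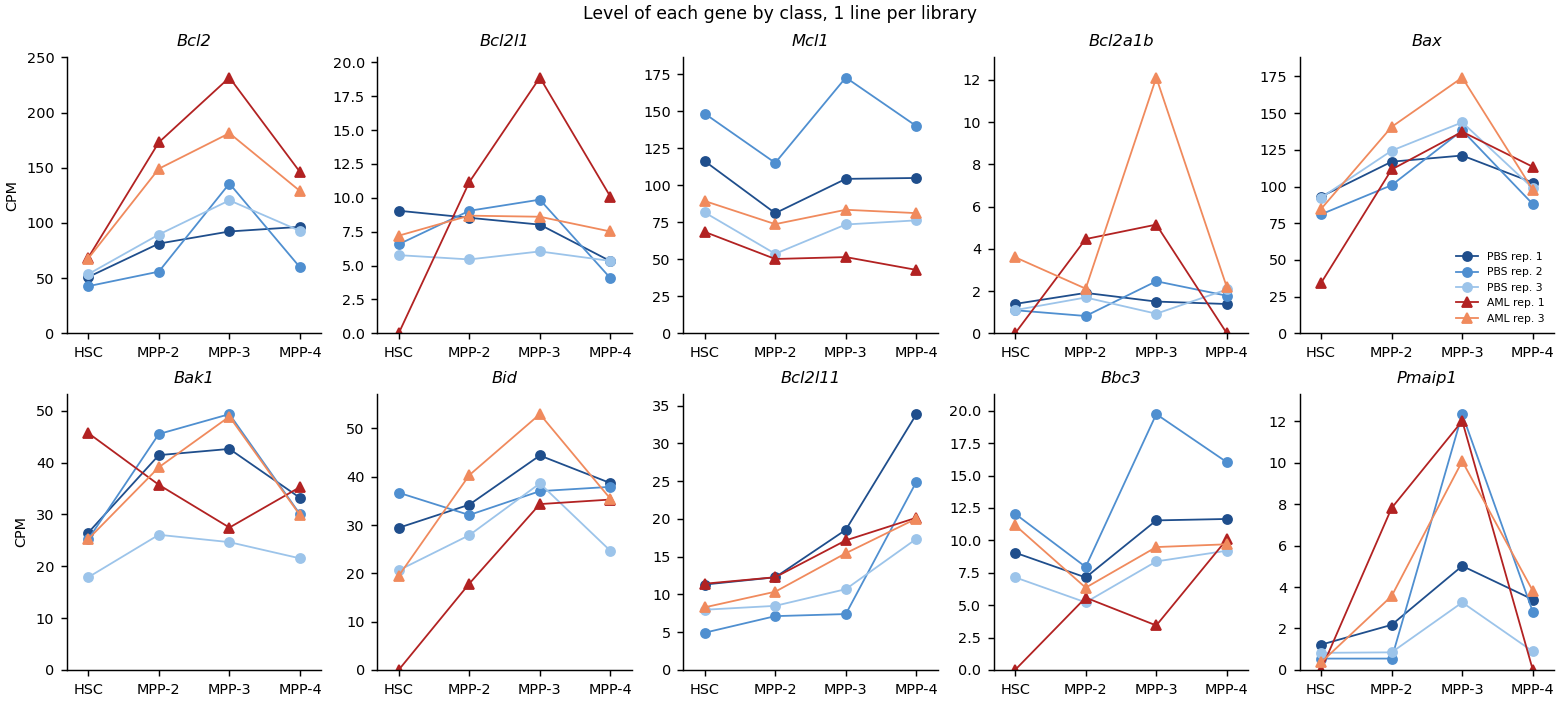
CPM (y axis, linear, from 0) of each of the 10 genes in the 4 classes (x axis), with 1 line per library (circles, PBS; triangles, AML). Bcl2 rises from 42.7 to 68.5 CPM in HSC to 92.3 to 232 CPM in MPP-3, and Bcl2l11 is highest in MPP-4 in every library.

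Mcl1 and Bbc3 were lower, and Bcl2, Bax and Bak1 higher, in S and G2M than in G1, phases which the authors called from gene scores of the same cells. Of the 10 members, 7 differed among the 3 phases at an adjusted p under 0.05, close to the 72.9% of all 12236 genes, and Bcl2l1, Bid and Pmaip1 did not pass (adjusted p = 0.11, 0.059 and 0.74). Against G1, 4 were higher and 2 lower in S, where 30% of all genes were higher and 31.1% lower. In G2M, 3 were higher and 4 lower, beside 28.4% and 29.2%. The median over the 10 members was -0.04 in S and -0.01 in G2M, and that over all genes -0.04 and -0.05.

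Mcl1 and Bbc3 fell in both cycling phases. Mcl1 in G1 was 116, 145 and 83.1 CPM in PBS replicates 1, 2 and 3, and 69.8 and 92.6 CPM in AML replicates 1 and 3. In S the same libraries had 80.9, 120, 52.9, 57.8 and 63.9 CPM, and in G2M 80.5, 112, 55.0, 39.9 and 76.6 CPM, lower than G1 in each library. The difference from G1 was -0.49 ± 0.06 in S (log2, adjusted p = 1.9e-07) and -0.45 ± 0.06 in G2M (adjusted p = 8.1e-07). Bbc3 went from 12.6, 16.5, 10.1, 6.65 and 11.9 CPM in G1 to 8.37, 10.0, 5.65, 3.13 and 6.08 CPM in S. It was lower in each library, but the values of AML replicate 1 rest on 2 UMIs in G1 and 2 in S. In G2M it was lower in 4 of 5 libraries, with 6.98 CPM (7 UMIs) in AML replicate 1 as the exception. Its difference was -0.78 ± 0.13 in S (adjusted p = 1.7e-05) and -1.10 ± 0.14 in G2M (adjusted p = 2.3e-07). With a class term in the fit, both genes kept their falls (Mcl1, -0.48 in S and -0.41 in G2M; Bbc3, -0.86 and -1.16, the largest adjusted p being 1.3e-06).

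Bcl2 and the effectors rose. Bcl2 was higher in S and in G2M than in G1 in each of the 5 libraries, from 71.3, 50.5, 71.0, 166 and 110 CPM in G1 to 90.5, 60.8, 91.7, 193 and 161 CPM in G2M (PBS replicates 1 to 3, then AML replicates 1 and 3). The rise was 0.41 ± 0.06 in S (adjusted p = 5.2e-07) and 0.40 ± 0.06 in G2M (adjusted p = 9.7e-07), and 0.30 and 0.33 with a class term (adjusted p = 0.0020 and 0.0032). Bax was at 73.2 to 96.5 CPM in G1 and at 110 to 156 CPM in S, with no overlap (0.51 ± 0.06, adjusted p = 6.9e-08). In G2M its rise was 0.23 ± 0.06 (adjusted p = 0.0026), and this was 0.02 with a class term (adjusted p = 0.81), 0.07 with cells thinned to equal depth (adjusted p = 0.54) and 0.11 without AML replicate 3 (adjusted p = 0.13). Bak1 rose by 0.36 ± 0.09 in S (adjusted p = 8.3e-04) and 0.50 ± 0.09 in G2M (adjusted p = 2.1e-05), in 4 of 5 libraries each, with AML replicate 1 lower. With thinned cells neither passed (0.06, adjusted p = 0.69, and 0.27, adjusted p = 0.086).

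The other BH3-only genes changed less uniformly. Bcl2l11 was lower in G2M than in G1 in each library, by 0.67 on the log2 scale (-0.67 ± 0.12, adjusted p = 2.1e-05), at 5.89 to 13.8 CPM against 12.8 to 25.0 CPM. With a class term the difference was -0.29 (adjusted p = 0.042). S did not differ from G1 beyond the spread (-0.17 ± 0.11, adjusted p = 0.18), but passed without AML replicate 3 (-0.32, adjusted p = 0.019). Bid was 0.25 ± 0.09 higher in S (adjusted p = 0.024), lost without PBS replicate 3 (0.25, adjusted p = 0.064) or AML replicate 3 (0.11, adjusted p = 0.30) and with a class term (0.16, adjusted p = 0.14). Pmaip1 differed in neither phase beyond the spread (0.09 ± 0.28 and -0.15 ± 0.29, adjusted p = 0.81 and 0.67). Bcl2l1 gave -0.23 ± 0.16 in S (adjusted p = 0.20) and 0.14 ± 0.15 in G2M (adjusted p = 0.44), and with a class term -0.43 in S (adjusted p = 0.045). Bcl2a1b was lower in G2M (-0.92 ± 0.34, adjusted p = 0.022, from 45 UMIs in G2M and 121 in G1), but 76 of the G1 UMIs came from AML replicate 3, and without that library the gene was not tested. DESeq2 did not call it (-0.82, adjusted p = 0.14).

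**Figure D2:**
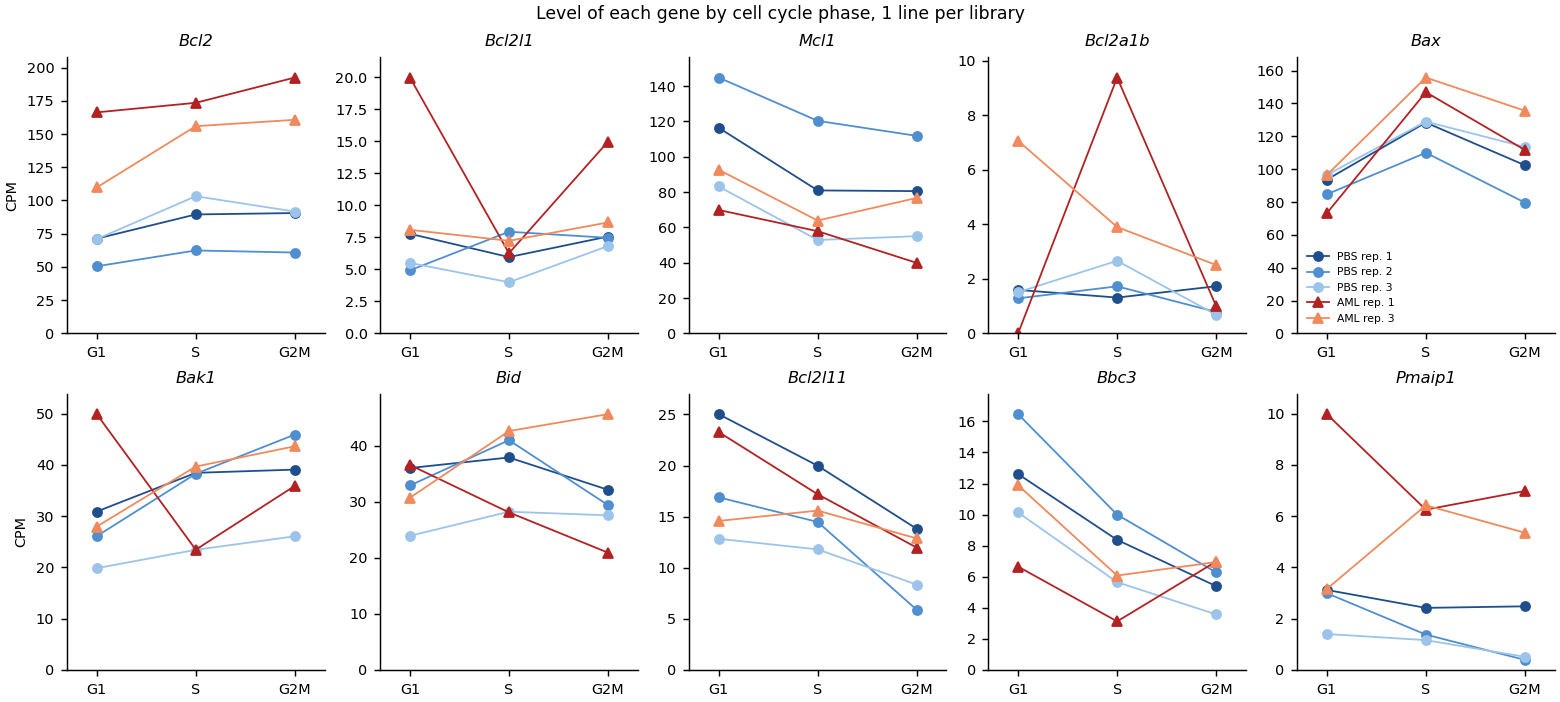
CPM (y axis, linear, from 0) of each gene in G1, S and G2M (x axis), with 1 line per library (circles, PBS; triangles, AML). Mcl1 falls from G1 to S and G2M in every library, and Bcl2 rises in every library.

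**Figure D3:**
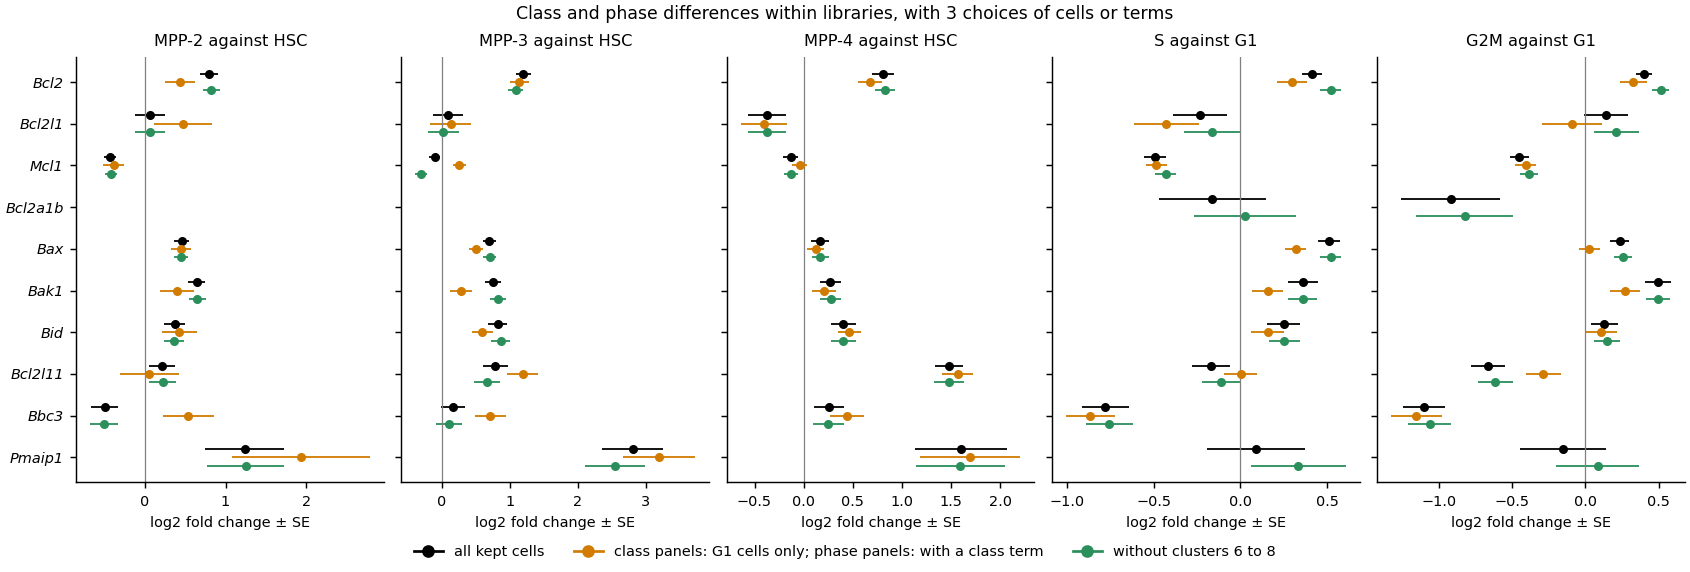
Log2 fold change with its SE (x axis) of each gene (y axis) for 3 classes against HSC and for S and G2M against G1, over all kept cells (black), in G1 cells alone or with a class term (orange) and without clusters 6 to 8 (green). The Bbc3 difference of MPP-2 turns from -0.50 to 0.54 in G1 cells, and the Bcl2l11 excess of MPP-4 stays between 1.48 and 1.57.

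Clusters were made by the authors from the same expression values and are described without a test. Bcl2 was lowest in cluster 7 (16.3 to 25.7 CPM, 3 libraries), whose MPP-2 cells number 88 of 102, and in cluster 5 (19.5 to 48.2 CPM). It was highest by median in cluster 6 (144 to 313 CPM) and cluster 8 (141 to 446 CPM). Because 49.7% to 56.3% of the UMIs of cluster 6 are of those plasma cell genes, its TMM-scaled CPM exceed plain CPM, which were 48.5 to 138 for Bcl2 and 61.7 to 131 for Mcl1. On the plain scale cluster 6 lost its rank for Bcl2, with a median of 79.3 CPM against 255 in cluster 8, 152 in cluster 4 and 122 in cluster 2. Bcl2l11 was at 18.9 to 39.4 CPM in cluster 2, of whose 3733 cells 3000 are MPP-4, and at 8.16 to 11.7 CPM in cluster 4. In cluster 6 it was higher on the TMM scale (32.7 to 52.1 CPM) and lower by median on the plain scale (15.5 CPM, against 31.2 in cluster 2). Bid and Bax had their highest medians among clusters 0 to 5 in cluster 4 (57.7 and 175 CPM), the cluster with the largest MPP-3 marker sums. The Bax median of cluster 7 was higher still (179 CPM, 154 to 199 CPM in 3 libraries), also in plain CPM (171 against 153 in cluster 4). Pmaip1 ranged from 7.09 to 17.9 CPM in cluster 4 and from 18.6 to 25.9 CPM in cluster 6 (plain medians 8.83 and 8.21 CPM), and had no UMI in clusters 7 and 8 in the 3 libraries with at least 20 such cells. Bbc3 had a median of 18.0 CPM in cluster 5 and 3.89 CPM in cluster 3, of whose 1445 cells 34 are in G1.

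With leukemia, Bcl2 was higher in the summed LSK cells, as were Bcl2a1b and Pmaip1 from few UMIs, but none of these passed the test. The comparison asks whether healthy progenitors of leukemic hosts differ from those of PBS hosts. Of the 10 members, edgeR called 0 at an adjusted p below 0.05, where 0.16% of 14364 genes were called. At an unadjusted p under 0.05 there were 3 members, beside 1511 of the 14364 genes. DESeq2 called 1, Bcl2. In 5 of 10 members (Bcl2, Bcl2l1, Bcl2a1b, Bax and Pmaip1) both AML libraries lay above the 3 PBS libraries, beside 14.6% of all genes tested, and in 0 both lay below, beside 17.4%. The median log2 difference was 0.23 over the members and -0.03 over all genes. In such sums, a change in the cells that make them up and a change in RNA per cell cannot be told apart. The HSC class made up 20.5% to 23.9% of PBS cells and 3.32% and 13.7% of AML cells, MPP-3 4.39% to 11.6% and 32.9% and 22.3%, and MPP-3 markers summed to 794 to 1456 CPM in PBS and 1809 and 1858 CPM in AML.

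Bcl2 was at 82.5, 56.0 and 86.3 CPM in PBS replicates 1, 2 and 3, and at 183 and 140 CPM in AML replicates 1 and 3. The means were 74.9 ± 16.5 CPM (SD, n = 3) and 161 ± 30.4 CPM (n = 2), a log2 difference of 1.10 ± 0.25 (SE, edgeR adjusted p = 0.14). Both AML libraries were above the 3 PBS libraries. The higher value is that of the library of lowest depth per cell, and the median mitochondrial share per cell was 0.65% and 0.85% in AML and 0.92% to 1.23% in PBS; the part of these in the difference was not tested. With cells thinned to 2000 UMIs the difference was 1.17 (adjusted p = 0.19). The call depended on the settings: Bcl2 passed with DESeq2 (1.11, adjusted p = 0.0078), with no filter on low counts (1.07, adjusted p = 0.0045) and without AML replicate 3 (1.29, adjusted p = 0.032). The last of these compares the single library AML replicate 1 with PBS, with the spread taken from the PBS libraries alone and that library assumed to vary like them. In HSC the AML values of 68.5 CPM (6 UMIs in 23 cells) and 67.8 CPM were above the highest PBS value of 53.6 CPM (0.47 ± 0.28), in MPP-2 173 and 149 CPM were above 89.5 CPM (1.11 ± 0.26), in MPP-3 232 and 181 CPM were above 136 CPM (0.84 ± 0.30), and in MPP-4 146 and 129 CPM were above 96.5 CPM (0.71 ± 0.25). None passed in edgeR (adjusted p = 0.99, 0.17, 0.46 and 0.63). The groups were also apart in each of the 3 phases, with 166 and 110 CPM against 50.5 to 71.3 CPM in G1, and in each of clusters 0 to 4, from 133 and 95.3 against at most 74.5 CPM in cluster 0 to 200 and 189 against at most 145 CPM in cluster 4. In G1 cells of MPP-3 they overlapped, with 213 and 180 CPM in AML and 205 CPM in PBS replicate 2 (32 UMIs), and in G1 cells of MPP-2 the lower AML value of 81.3 CPM (6 UMIs) was next to a PBS value of 79.9 CPM. These values are the same libraries divided in other ways, not further replicates.

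**Figure D4:**
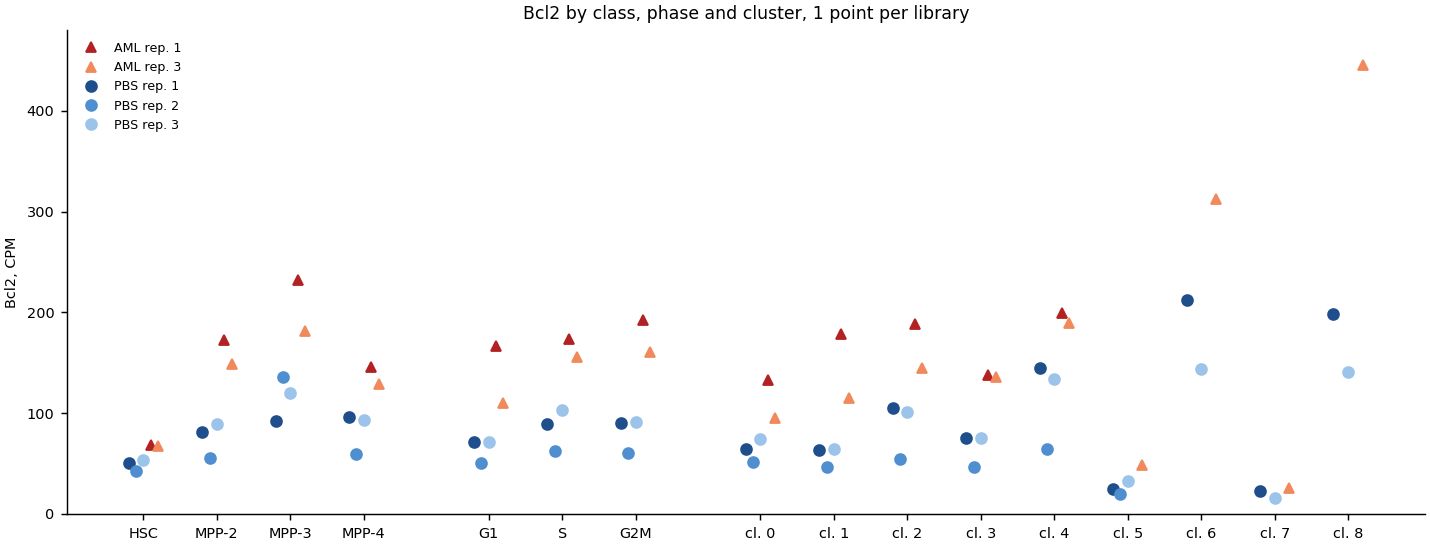
Bcl2 in CPM (y axis, linear, from 0) in each class, phase and cluster (cl.) with at least 20 cells in a library (x axis), 1 point per library (circles, PBS; triangles, AML). The AML points lie above the PBS points in all 4 classes, all 3 phases and clusters 0 to 4.

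Bcl2a1b was at 1.57, 1.27 and 1.61 CPM in PBS (54, 13 and 34 UMIs) and at 3.61 and 4.67 CPM in AML (7 and 132 UMIs). The log2 difference was 1.53 ± 0.35 (adjusted p = 0.14). Its copies were higher too but did not pass, Bcl2a1d by 2.16 ± 0.63 (adjusted p = 0.25) and Bcl2a1a by 2.07 ± 0.63 (adjusted p = 0.27). They had 4 and 1 UMIs in AML replicate 1, 30 and 31 in AML replicate 3, and at most 12 in any PBS library. In the MPP-3 class Bcl2a1b was at 1.51, 2.47 and 0.93 CPM in PBS (6, 1 and 2 UMIs) and at 5.15 and 12.1 CPM in AML (3 and 83 UMIs), a log2 difference of 2.84 ± 0.61 (adjusted p = 0.089). It passed without PBS replicate 2 (2.98, adjusted p = 0.039) and with no filter on low counts (2.85, adjusted p = 0.0033). Without clusters 6 to 8 the MPP-3 values were 1.11, 0 and 1.081 CPM in PBS and 3.72 and 10.25 CPM in AML (2 and 63 UMIs), and the gene was below the count filter. The difference was 0.72 ± 0.59 in MPP-2 (adjusted p = 0.75) and 0.23 ± 0.61 in MPP-4 (adjusted p = 0.98). AML replicate 1 had no UMI of the gene in MPP-4 or in HSC, where it was not tested. Inside AML replicate 3 the level was 52.6 CPM in cluster 8 (15 UMIs), 29.8 CPM in cluster 6 (8 UMIs) and 14.0 CPM in cluster 4. In plain CPM the highest value of any library was 65.7 in cluster 8, 13.1 in cluster 6 and 13.25 in cluster 4. The last of these is of AML replicate 1 (3 UMIs), not AML replicate 3. On that scale cluster 6 no longer stood clear of cluster 4. Without clusters 6 to 8, the difference over all LSK cells was 1.35 (adjusted p = 0.21). Cluster 4 held 11.1% and 9.57% of the cells of AML replicates 1 and 3, against 2.46% to 3.41% in PBS. Cluster 8 held 0.722% and 1.31% against 0.409% to 0.535%, and cluster 6 held 1.30% and 1.49% against 0.834% to 1.28%. T and NK markers summed to 157 to 197 CPM in PBS and 186 and 188 CPM in AML, and neutrophil markers to 2.15 to 16.2 and 2.58 and 3.40 CPM. The part of these clusters and markers in the result was not tested.

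Pmaip1 was at 2.78, 1.86 and 1.09 CPM in PBS and at 7.23 and 4.85 CPM in AML, from 14 UMIs (AML replicate 1) and 137 UMIs (AML replicate 3). The log2 difference was 1.51 ± 0.41 (adjusted p = 0.21), and with no filter it passed (1.49, adjusted p = 0.0099). In G1 cells alone it was 0.57 (adjusted p = 0.94). Within MPP-2 the AML values of 7.81 and 3.56 CPM were above the highest PBS value of 2.18 CPM (1.79 ± 0.60, adjusted p = 0.47). Within MPP-3 the groups overlapped through the 12.3 CPM (5 UMIs) of PBS replicate 2 (1.03 ± 0.51, adjusted p = 0.69). Without clusters 6 to 8 that library had 3.26 CPM (1 UMI), and the AML values of 11.2 and 10.4 CPM were above the highest PBS value of 4.17 CPM (1.64, adjusted p = 0.28). In MPP-4 the AML values of 0 and 3.81 CPM lay on both sides of PBS (0.89 to 3.40 CPM, difference 0.50 ± 0.57, adjusted p = 0.93). In HSC they were 0 and 0.36 CPM (0 and 1 UMI), below the PBS values of 0.55 to 1.22 CPM, and the gene was not tested there.

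The remaining members gave no separation that passed a test. Bcl2l1 was 6.37 ± 0.91 CPM (SD, n = 3) in PBS and 10.5 ± 3.47 CPM (n = 2) in AML (0.58 ± 0.29, adjusted p = 0.49), and in MPP-4 its AML values of 10.1 and 7.52 CPM were above 5.34 CPM (0.66 ± 0.37, adjusted p = 0.88). Mcl1 was at 97.9, 128 and 67.0 CPM in PBS and at 50.6 and 78.8 CPM in AML, overlapping (-0.57 ± 0.29, adjusted p = 0.51). Bax was 103 ± 11.3 and 122 ± 6.51 CPM (0.26 ± 0.23, adjusted p = 0.68), and in G1 cells its sign turned (-0.06, adjusted p = 0.99). Bak1 (0.20 ± 0.24), Bid (0.06 ± 0.24), Bcl2l11 (-0.05 ± 0.28) and Bbc3 (-0.29 ± 0.29) overlapped between the groups, with adjusted p from 0.72 to 0.96. In the HSC class Bid was at 29.4, 36.7 and 20.6 CPM in PBS and at 0 and 19.5 CPM in AML (-0.62 ± 0.33, adjusted p = 0.99).

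**Figure D5:**
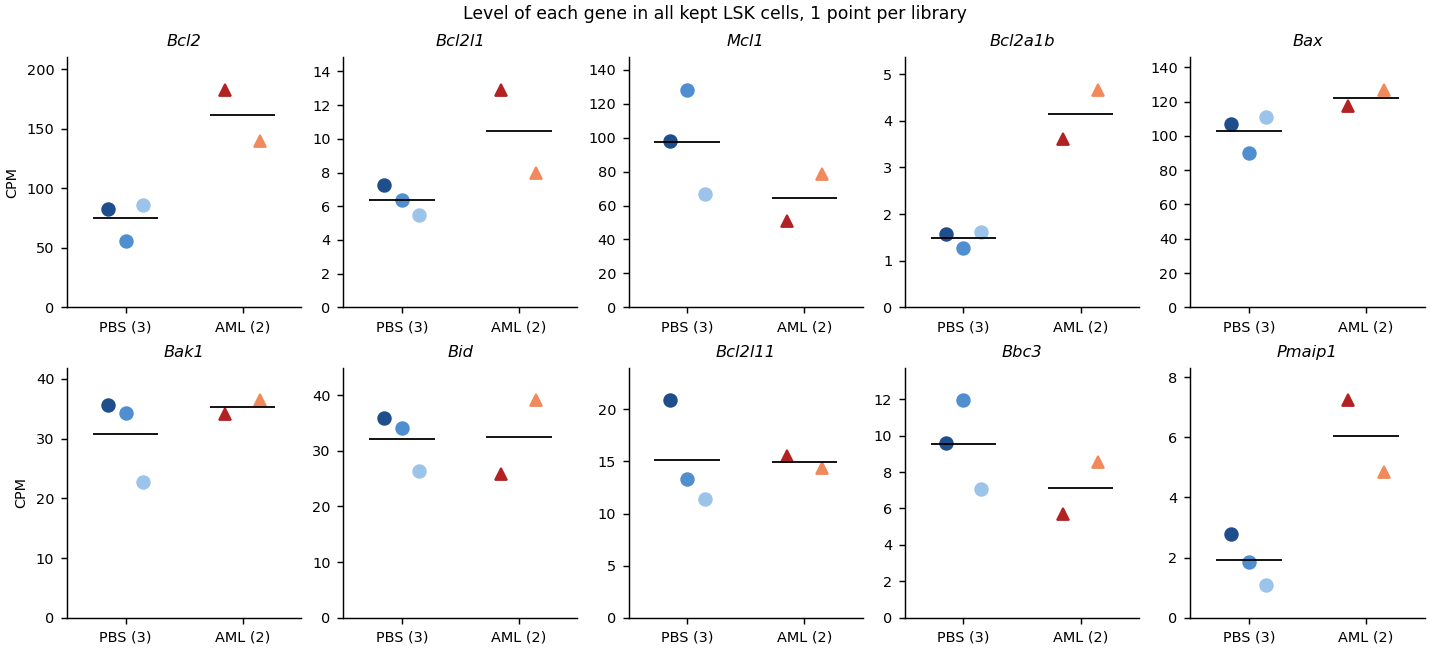
CPM (y axis, linear, from 0) of each gene in all kept LSK cells of the 3 PBS (circles) and 2 AML (triangles) libraries (x axis), with the group mean as a line. Both AML points lie above all PBS points for Bcl2, Bcl2l1, Bcl2a1b, Bax and Pmaip1.

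Within the classes, edgeR and DESeq2 each called 0 members between AML and PBS. The background was 0.178% of genes called for HSC, 0.0399% for MPP-2, 0.0486% for MPP-3 and 0.0325% for MPP-4, and 0, 2, 2 and 2 members had an unadjusted p under 0.05, as had 444 of 10668, 946 of 12518, 761 of 10294 and 730 of 12305 genes. Both AML libraries were above all PBS libraries for 1 of 8 members for HSC (11% of all genes), 3 of 10 for MPP-2 (14.1%), 2 of 10 for MPP-3 (12%) and 2 of 10 for MPP-4 (13.2%). Both were below all PBS libraries for 1 member, Bid in HSC (16.3% of all genes), and for 0 in the other classes (12.6% to 14.8%). Whether the AML difference itself varied between classes was tested with class-by-group terms, and 0 of 10 members passed in edgeR beside 0.872% of 12734 genes, with 3 at an unadjusted p under 0.05 (1383 of all genes). The lowest adjusted p was that of Bcl2a1b (0.086), which passed without PBS replicate 2 and with no filter on low counts.

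Of the wider death pathway, 60 genes in 7 lists were examined, of which 59 matched the files: other multidomain BCL2 genes, other BH3-only genes, the apoptosome and caspases, inhibitor of apoptosis proteins and their antagonists, the death receptor arm, the p53 arm, and regulators of MCL1 and BIM. Between AML and PBS over all LSK cells, 0 of the 53 tested passed in edgeR, beside 0.16% of all genes. At an unadjusted p under 0.05 there were 10, beside 1511 of 14364 genes, and DESeq2 called 0 of 53 (7 at an unadjusted p under 0.05). Their median log2 difference was 0.01, and that of all genes -0.03. Between classes the AML difference varied for 1 of 51, beside 0.872% of all genes: Pim1 (adjusted p = 0.037), a kinase that phosphorylates BAD.

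Across classes, 12 of 46 tested genes were higher and 11 lower in MPP-2 than in HSC, near the 28.3% and 27.8% of all genes. Cycs, encoding cytochrome c, was 1.51 ± 0.10 higher (adjusted p = 4.0e-14), Bok, a BAX relative, 1.25 ± 0.23 (adjusted p = 3.0e-05) and the p53 target Cdkn1a 1.47 ± 0.27 (adjusted p = 2.7e-05). Another p53 target, Trp53inp1, was lower (-1.23 ± 0.23, adjusted p = 4.1e-05), and of the 9 genes tested in the p53 arm 3 were higher and 2 lower. Birc3, an inhibitor of apoptosis, fell by 0.93 (adjusted p = 2.5e-06), and Pim1 by 0.81 (adjusted p = 4.0e-07). In G1 cells, which are 558 of the 4839 MPP-2 cells, Cdkn1a, Trp53inp1, Birc3 and Pim1 no longer passed. The part of the smaller cell number in this was not tested. In MPP-3, 11 were higher and 9 lower (25.5% and 24.2% of all genes), with Cycs 1.59 ± 0.10 higher, Cdkn1a 2.13 ± 0.28 higher and Birc2 lower (-0.75 ± 0.11), each with an adjusted p of at most 1.3e-06. The p53 target Trp53inp1 was also called (1.47 ± 0.20), and without clusters 6 to 8 it was -0.18 (adjusted p = 0.49). In MPP-4, 5 were higher and 4 lower (15.9% and 15.4% of all genes). Those higher include Cdkn1a (1.78 ± 0.26, adjusted p = 2.0e-06), Phlda3, a p53 target that restrains AKT (1.19 ± 0.25, adjusted p = 4.5e-04), and Casp8 (0.43 ± 0.09, adjusted p = 3.4e-04). Those lower include the forkhead factor Foxo1 (-0.64 ± 0.21, adjusted p = 0.021) and the death receptor Fas (-0.88 ± 0.32, adjusted p = 0.035). The call of Foxo1 was lost without PBS replicate 1 (-0.43, adjusted p = 0.27) or PBS replicate 3 (-0.59, adjusted p = 0.10), and that of Fas without PBS replicate 2 (-0.74, adjusted p = 0.12) or PBS replicate 3 (-1.004, adjusted p = 0.061).

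Across phases, 16 of 49 tested genes were higher and 19 lower in S than in G1, and 10 higher and 16 lower in G2M. Of all genes, 30% were higher and 31.1% lower in S, and 28.4% and 29.2% in G2M. The 9 regulators of MCL1 and BIM were all called in S, 3 higher and 6 lower, where 7473 of 12236 genes were called. Pim1 fell by 0.86 (adjusted p = 1.0e-12) and Foxo3, a forkhead factor that induces Bcl2l11, by 0.63 (adjusted p = 3.9e-10). In S, Bok was 2.62 ± 0.21 higher (adjusted p = 2.5e-11), Cycs 1.52 ± 0.07 (adjusted p = 2.4e-16) and Trp53 0.41 ± 0.05 (adjusted p = 8.7e-08), and Trp53inp1 was lower (-2.21 ± 0.14, adjusted p = 1.5e-13). In G2M, Cycs was 1.03 ± 0.07 higher (adjusted p = 1.1e-12) and Dynll1, a dynein light chain that binds BIM, 0.75 ± 0.06 (adjusted p = 4.8e-12). Trp53inp1 (-1.32 ± 0.12, adjusted p = 4.8e-10) and Bcl2l14 (-1.47 ± 0.36, adjusted p = 9.8e-04) were lower.

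The genes most like each member were sought over the 20 sums of library and class, as the Pearson r of log2 CPM after subtracting each library's mean, among 7968 genes with a mean of at least 10 CPM. The points share libraries, depth and classes, so that r is a description only. Bcl2 was nearest to Anxa3 (0.95), Sec61b (0.95) and Erp29 (0.95), and Mcl1 to Skil (0.90), Mef2b (0.86) and Junb (0.85). Bax was nearest to Tmem160, Sfxn1 and Eif3g (each 0.98), Bak1 to Ebna1bp2, Sec13 and Mrpl46 (0.91 to 0.92), Bid to Otub1, Fdxr and Tram1 (0.98 to 0.99), and Bcl2l11 to St8sia4 (0.92), Wfdc17 (0.91) and Satb1 (0.90), a gene of lymphoid priming. Without clusters 6 to 8 the nearest gene was Pkib for Bcl2 (0.96), Bcl9 for Mcl1 (0.89) and Slc44a2 for Bcl2l11 (0.89).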

How the data were processed

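Sorted LSK cells of 3 PBS and 3 AML libraries were profiled with 10x single-cell RNA sequencing. The authors deposited UMI counts per gene and barcode for each library. The submitters' processing notes name Cell Ranger 7.0.1, R 4.2.2, Seurat 4.3.0 and the builds GRCm38 and mm10. The annotation release, cell filters, doublet treatment and intron counting are not stated in the sources at hand. The authors' cell table gives phase, cluster and class, the counts of UMIs and genes, the percent of mitochondrial and ribosomal UMIs, and module scores, the last deposited by the authors as a score per cell. No doublet was removed here.

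UMI counts of the 16822 cells in that table were summed per library, and per library and class, phase or cluster with at least 20 cells. Sums were tested with edgeR 4.0.16 (R 4.3.3) by the quasi-likelihood F test with TMM normalization, filterByExpr and Benjamini-Hochberg adjustment over all genes tested, at 0.05. AML was compared with PBS without covariates. Class and phase comparisons had the library as a term. The SE is the absolute log2 fold change divided by the square root of F. The alternatives were DESeq2 1.42.0, no filter on low counts, leaving out each library, a replicate block, PBS libraries only, G1 cells only, cells thinned to 2000 UMIs, a class term, and an own filter (at least 1000 genes, at most 10% mitochondrial UMIs) on all barcodes of the 6 libraries. Leaving out clusters 6, 7 and 8 was chosen after seeing the data. The fits were tested on simulated data. The comparison of 3 with 3 libraries became 3 with 2, since the table has no cell of AML replicate 2. Another 11 columns of the table were not used. CPM intervals cover counting error only.

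The members and gene lists were chosen with earlier results of these data known. Named genes are all 10 members and, of the wider lists, those with an adjusted p under 0.05, at most the 3 of lowest p in each list and direction per comparison, from which the text takes examples, and the 3 genes most like each member with a mean of at least 10 CPM. Gene positions are from GENCODE M21, and upstream sequences from RefSeq (GRCm38.p6).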

Additional observations from a re-analysis of the deposited data

How the results depend on the processing

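Over the results of single genes and all settings, 1256 values kept their direction and side of the threshold, 114 lost the call, 18 gained it and 36 changed sign. The cause was not tested. Between AML and PBS over all LSK cells, 0 members were called in the main test, 1 with DESeq2, 3 with no filter, and 0 to 1 when single libraries were left out (1 without AML replicate 3). Of all genes, 23 were called, but 83 with DESeq2, 392 with no filter, 91 with the replicate block, 75 with the own filter, 9 with thinned cells, 419 without AML replicate 3, 2 when PBS replicate 1 was dropped and 8 when PBS replicate 2 was. Without AML replicate 1 or 3, the AML group is a single library, assumed to vary like the PBS libraries, which alone supply the spread. Over all settings the calls went from 0 to 29 in HSC (main test 19), 0 to 156 in MPP-2 (5), 2 to 166 in MPP-3 (5), 0 to 75 in MPP-4 (4), 3742 to 8841 between classes (7927), 3818 to 9487 between phases (8920) and 29 to 506 for the AML effect between classes (111). In MPP-2, no filter gave 1 member, beside 156 of 19253 genes. In MPP-3, no filter gave 1 (166 of 18112 genes) and the replicate block 1 (47 of 10294 genes). Leaving out single libraries gave 0 to 1 there (1 without PBS replicate 2, beside 15 of 10685 genes). For differences of the AML effect between classes, no filter gave 1 (506 of 21591 genes) and leaving out libraries 0 to 1 (1 without PBS replicate 2, beside 189 of 12629 genes). Against HSC, 7 members were called in MPP-2, where 28.3% of all genes were higher and 27.8% lower. With no replicate block (library term left out) 3 members were called, beside 3480 of 11705 genes. In G1 cells it was 1 (1020 of 10279 genes) and with thinned cells 4 (4340 of 9627 genes). Without single libraries it was 4 to 7 (4 without AML replicate 3, beside 5814 of 11634 genes). The range without single libraries was 6 to 7 in MPP-3, 2 to 5 in MPP-4 and 8 to 9 for any class. In MPP-4, 2 members were called with no replicate block (1361 of 11705 genes) and 2 without AML replicate 3 (2987 of 11634 genes). Between phases, no replicate block gave 2 members in each comparison, beside 3818 of 12236 genes for any phase, 3344 in S and 2780 in G2M. Thinned cells gave 4 members in G2M (4504 of 10055 genes). The ranges without single libraries were 6 to 8 for any phase, 5 to 6 in S and 5 to 7 in G2M. Whether the replicate numbers pair the samples could not be told. Same-numbered libraries correlated at -0.0948 and -0.126 over all LSK cells, after centring each group on its mean. With 2 AML libraries that centring makes AML replicate 3 the mirror of AML replicate 1, so that these values cannot show or exclude pairing. With the block Bcl2 gave 0.919 (adjusted p = 0.317).

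Changes of sign follow, on the log2 scale, with the range over single libraries left out where these turned it. For AML against PBS, Bax was -0.0628 in G1 cells, Bid was -0.00206 with the own filter without AML replicate 2 and ranged from -0.312 to 0.297, and Bcl2l11 was 0.00333 with the replicate block, 0.0223 with that own filter and ranged from -0.21 to 0.292. Against HSC, Bcl2l1 in MPP-2 was -0.0390 with thinned cells and ranged from -0.0233 to 0.190, and in MPP-3 it was -0.0126 in PBS libraries and -0.135 with thinned cells. In G1 cells Bbc3 in MPP-2 was 0.540 and Mcl1 in MPP-3 0.263, and without clusters 6 to 8 Trp53inp1 in MPP-3 was -0.181. In S, Bcl2a1b was 0.0235 without clusters 6 to 8, 0.175 with DESeq2 and 0.302 in PBS libraries, Bcl2l11 was 0.00108 with a class term, and Pmaip1 was -0.126 with DESeq2, -0.458 in PBS libraries and ranged from -0.563 to 0.272. In G2M, Bcl2l1 was -0.0291 with thinned cells and -0.0923 with a class term, Bid was -0.0155 in PBS libraries, -0.00296 with thinned cells and ranged from -0.0963 to 0.264, and Pmaip1 was 0.0832 without clusters 6 to 8 and ranged from -0.776 to 0.0474. Between MPP-4 and MPP-2, Bcl2 was -0.0799 with no replicate block, -0.000317 without clusters 6 to 8 and ranged from -0.0409 to 0.111, and Bbc3 was -0.0999 in G1 cells. Between MPP-3 and MPP-2, Bak1 was -0.116 in G1 cells and ranged from -0.0340 to 0.171. Thinning left out 125 cells of PBS replicate 1 and 80 of PBS replicate 3.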

Other observations

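AML replicate 2 has 17055 barcodes, of which 6900 also occur in another library, and it shares 1223 barcodes with PBS replicate 2, which is 97.4% of those of PBS replicate 2. With the own filter, 106 of its barcodes passed, of which 75 are also a barcode of another library and 12 a kept cell of another library. In these 106 barcodes Bcl2 had 33 UMIs (99.4 CPM, exact Poisson interval 68.4 to 140), where the PBS libraries with the same filter had 55.3 to 85.1 CPM. Bid had 19 UMIs (57.2 CPM, interval 34.5 to 89.4), where PBS had 27.8 to 37.3 CPM. Mcl1 had 20 UMIs (60.2 CPM), Bax 42 UMIs (127 CPM) and Pmaip1 0 UMIs.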
